A study of Mus musculus with 6 samples.

Results

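The suppressors of cytokine signalling (SOCS) family was analysed as 8 genes, Socs1 to Socs7 and Cish, chosen by symbol from the 24411 genes of the count tables. All 8 were in the tables, and all 8 passed the filter on low counts. RNA-seq libraries of mouse primary microglia (PM) were compared, 3 that received GSK-J4 alone (10 μM) and 3 that received LPS (10 ng/ml) together with GSK-J4 at the same dose, each for 4-h. GSK-J4 inhibits the histone H3K27 demethylase JMJD3, and LPS, a bacterial endotoxin, is sensed through TLR4. Both groups carried GSK-J4, so each difference below is between libraries with and without LPS in its presence. It may also hold the shifts in ribosomal RNA and cell type markers given below. PM without GSK-J4 were not analysed here. PM were shaken off mixed glial cultures of whole brains of ICR mice at postnatal day 3, with the brains of 12 mice pooled. The study calls the libraries biological replicates from independent RNA samples. Where they do not come from separate cultures, the p values measure only the spread between these samples, which may be technical.

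Several SOCS proteins, though not all, are induced by cytokines and switch off the receptors that induced them. Each member of the family has an SH2 domain, which docks on phosphorylated tyrosines of receptors or kinases. Each also has a SOCS box, which recruits elongins B and C and the scaffold cullin 5 so that the bound protein is marked for degradation. SOCS1 and SOCS3 also block the catalytic site of JAK kinases directly, and in microglia and macrophages they are known for limiting the responses to interferons and to interleukin 6 during the response to LPS.

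Promoter windows of Socs1, Socs3 and Cish are shown because these 3 members rose with LPS. A further reason is that STAT and interferon regulatory factors are textbook activators of several members of the family. RefSeq sequences of the GRCm38.p6 build were available for 4 of the 8 members, Socs1, Socs3, Socs4 and Cish. Each window runs from 170 bases before the annotated start to 22 bases after it, written 5′ to 3′ on the strand of the gene. The RefSeq start used here is the 5′ end of the GENCODE gene span for Socs1, but lies 681 bases downstream of that end for Socs3 and 633 bases downstream for Cish. Capitals mark matches to TTCNNNGAA, the STAT-type palindrome, or to GAAANNGAA, a repeat of the kind found in interferon response elements, searched on both strands with these sequences already known.
Socs1 (chr16:10785515-10785706, minus strand): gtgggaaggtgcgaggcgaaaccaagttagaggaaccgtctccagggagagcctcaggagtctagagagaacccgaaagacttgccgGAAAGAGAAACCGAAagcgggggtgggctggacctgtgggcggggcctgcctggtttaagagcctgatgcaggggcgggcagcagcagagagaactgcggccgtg
Socs3 (chr11:117969345-117969536, minus strand): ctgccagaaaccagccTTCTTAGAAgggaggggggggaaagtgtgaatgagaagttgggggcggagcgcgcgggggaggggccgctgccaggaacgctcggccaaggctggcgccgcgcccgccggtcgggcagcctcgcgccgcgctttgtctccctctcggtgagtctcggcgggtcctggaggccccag
Cish (chr9:107296489-107296680, plus strand): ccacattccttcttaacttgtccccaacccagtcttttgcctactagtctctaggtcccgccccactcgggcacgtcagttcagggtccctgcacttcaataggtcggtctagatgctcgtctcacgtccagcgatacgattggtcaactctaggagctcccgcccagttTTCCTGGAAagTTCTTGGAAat

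In the full windows of 300 bases, from 250 before the start to 50 after it, the Cish promoter held 2 STAT-type matches, TTCCTGGAA beginning at the start base and TTCTTGGAA beginning at base 12. The Socs3 promoter held 1, TTCTTAGAA, beginning 154 bases before the start. Of 32851 promoter windows of this length, 8.30% held at least 1 STAT-type match and 0.457% held at least 2. The Socs1 promoter held no STAT-type match and 2 overlapping interferon-type matches on the strand of the gene, GAAAGAGAA and GAAACCGAA, beginning 83 and 77 bases before the start, where 8.56% of all windows held at least 1 and 0.624% at least 2. Neither motif occurred in the Socs4 window. The NF-κB-type motif GGNNTTTCC, in 5.82% of all windows, matched only Cish among the 4, at base 31 after the start and apart from its STAT-type matches. The AP-1-type motif TGANTCA, in 7.81% of all windows, matched none of the 4. A match is a run of letters in this window and was not tested for binding.

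The depth was 2597505 to 3472716 fragments assigned to genes per library. Levels are given as CPM, counts scaled to the library size after TMM, on which 3 counts, taken as the lower limit, amount to 0.673 to 1.24 CPM. Replicate 3 of both groups lay apart from replicates 1 and 2 on the second principal component (16.4% of the variance). Of the assigned fragments, 25.6% ± 5.88 (SD, n = 3) fell on Rn45s, the precursor of ribosomal RNA, in the GSK-J4 libraries, compared with 47.1% ± 1.15 in those with LPS. The microglial label was checked on 10 marker genes, of which 9 passed the filter, with Csf1r at 758 CPM and Cx3cr1 at 362 CPM in GSK-J4 but Siglech at no more than 2 counts in any library. The summed level of the microglial markers was 2642 to 2736 CPM in GSK-J4 and 2034 to 2084 CPM in LPS + GSK-J4, with 2 of 10 lower at an adjusted p of at most 0.01. Summed astrocyte markers lay at 59.9 to 63.4 CPM and 142 to 174 CPM in the same order, with 4 of 8 higher. Summed oligodendrocyte markers lay at 154 to 184 CPM and 269 to 299 CPM, with 4 of 9 higher. Neuronal markers summed to 14.8 to 19.1 CPM and 32.4 to 40.6 CPM (2 of 5 higher), fibroblast markers to 71.8 to 262 CPM and 132 to 393 CPM (none of 5 called by edgeR or DESeq2, 1 at an unadjusted p under 0.05), and endothelial markers, with Cldn5 at 0, to 13.9 to 21.2 CPM and 24.98 to 62.4 CPM (1 of 4 higher). The part of these shifts in the results below was not tested, and in bulk samples fewer cells of a type and less RNA per cell cannot be told apart.

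With LPS 3 members rose, Socs1, Socs3 and Cish, and 1 fell, Socs6, past the threshold, which asks for an adjusted p no higher than 0.01 together with an absolute log2 fold change no lower than 1.5 (edgeR's quasi-likelihood test, Benjamini-Hochberg adjustment over 10133 genes). Over all genes tested 3.76% passed this threshold, 2.95% upward and 0.809% downward. At an adjusted p of at most 0.01 with any fold change, Socs7 also rose, which gave 4 members up, 1 down and 3 neither, where 8.42% of all genes rose and 5.46% fell. The libraries of the 2 groups did not overlap for 5 of the 8 members, compared with 38.2% of all genes tested. The same 3 members rose and the same 1 fell by the threshold of 1.5 when replicate 3 of both groups was left out, a choice made after the data were seen. With the ribosomal features removed these calls also stood. Socs1 and Cish passed the filter on low counts only through LPS + GSK-J4, where 3 of 3 libraries were over the cutoff of 3.17 CPM, while 0 of 3 were in GSK-J4, so their counts are part of the filter and the totals above are a description.

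**Figure D1:**
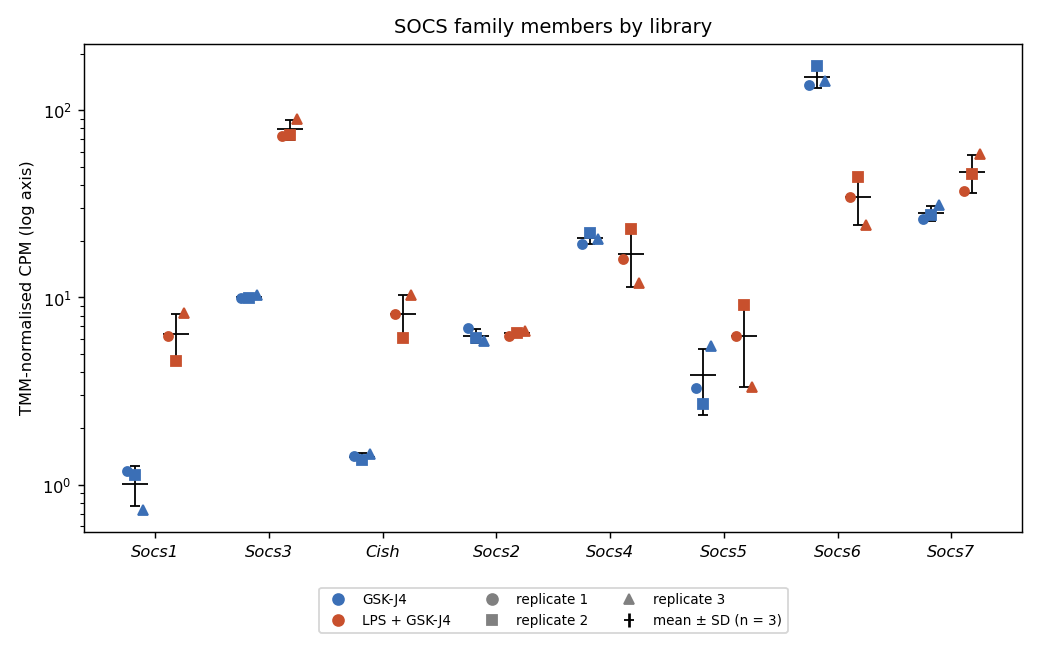
TMM-normalised CPM (log axis) of each SOCS family member in each of the 6 libraries, with GSK-J4 in blue and LPS + GSK-J4 in red, the replicate number as the shape, and bars for the mean ± SD (n = 3). Socs1, Socs3, Cish and Socs7 lie higher in all LPS + GSK-J4 libraries, Socs6 lies lower in all of them, and the groups overlap for Socs2, Socs4 and Socs5.

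Socs3 (ENSMUSG00000053113, chr11:117966079-117970047, minus strand) encodes the inhibitor that docks on gp130, the shared receptor chain of the interleukin 6 family, and blocks the JAKs bound there. It was at 9.91, 9.88 and 10.3 CPM in GSK-J4 replicates 1, 2 and 3 and at 73.0, 74.0 and 90.0 CPM in LPS + GSK-J4 replicates 1, 2 and 3. The lowest LPS + GSK-J4 library was far above the highest GSK-J4 library, and the GSK-J4 libraries differed among themselves by less than counting alone would give, with a coefficient of variation of 2.16% against a counting error of 16.2%. The log2 fold change was 2.98 (SE 0.17, 95% interval 2.61 to 3.34, adjusted p = 2.75e-09), the 59th largest increase of 10133 genes. Across 15 alternatives of processing it stayed between 2.87 and 3.03. In none of the 6 libraries was a count found on the strand opposite to Socs3.

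Socs1 (ENSMUSG00000038037, chr16:10782240-10785536, minus strand), the closest relative of Socs3 and the family's main inhibitor of interferon receptors, was much rarer. Its counts were 5, 5 and 2 in GSK-J4, that is 1.18, 1.12 and 0.733 CPM, and 16, 12 and 20 in LPS + GSK-J4, that is 6.24, 4.58 and 8.26 CPM. Every LPS + GSK-J4 library was above every GSK-J4 library, although GSK-J4 replicate 3 was under the lower limit of 3 counts. This gave a log2 fold change of 2.55 (SE 0.44, 95% interval 1.62 to 3.48, adjusted p = 0.000457), with a range of 2.21 to 2.75 over 14 alternatives. Only 12 counts in all stand behind the GSK-J4 mean.

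Cish (ENSMUSG00000032578, chr9:107296026-107302784, plus strand), the founding member and a well-known target gene of STAT5, acts on receptors of the growth hormone and interleukin 2 type. It had 6, 6 and 4 counts in GSK-J4, or 1.42, 1.35 and 1.47 CPM, and 21, 16 and 25 counts in LPS + GSK-J4, or 8.20, 6.11 and 10.3 CPM. As with Socs1, the groups were apart and the GSK-J4 libraries sat near the lower limit. The log2 fold change was 2.51 (SE 0.38, 95% interval 1.70 to 3.33, adjusted p = 0.000166), and alternatives gave 2.32 to 2.69. The pseudogene Gm17040 and the antisense gene Gm17041 overlap Cish exons on the opposite strand. Counts on that strand totalled 6 over the 6 libraries, against 78 on the strand of Cish, and the call was kept with unstranded counts.

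Socs6 (ENSMUSG00000056153, chromosome 18, 88665224 to 88927481, minus strand), which binds the receptor tyrosine kinase KIT and insulin receptor substrates, moved the other way. It was the most abundant member in GSK-J4, at 137, 172 and 143 CPM in replicates 1, 2 and 3, and stood at 34.3, 44.3 and 24.4 CPM in LPS + GSK-J4. The highest LPS + GSK-J4 library was well below the lowest GSK-J4 library. The fitted log2 fold change was -2.13 (SE 0.18, 95% interval -2.51 to -1.74, adjusted p = 3.20e-07), the 20th largest decrease of 10133 genes. With between 389 and 767 counts per GSK-J4 library and between 59 and 116 per LPS + GSK-J4 library, Socs6 had the most counts of any member in GSK-J4 and over all 6 libraries, though not in LPS + GSK-J4, and the change stayed between -2.35 and -1.94 over 15 alternatives. None of the 3 pseudogenes annotated within Socs6 overlaps its exons.

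Socs7 (ENSMUSG00000038485, chr11:97362551-97398542, plus strand), the closest relative of Socs6 and a partner of the adaptor NCK and of insulin receptor substrates, rose to a small extent. It was at 26.2, 27.6 and 31.2 CPM in GSK-J4 and at 37.1, 45.4 and 58.6 CPM in LPS + GSK-J4. The groups did not overlap, although LPS + GSK-J4 replicate 1 was only a little above GSK-J4 replicate 3. The log2 fold change was 0.74 (SE 0.18, 95% interval 0.35 to 1.12, adjusted p = 0.00750), short of the threshold of 1.5. Leaving out GSK-J4 replicate 1, 2 or 3 alone raised the adjusted p of Socs7 to 0.0389, 0.0352 or 0.0109. Leaving out LPS + GSK-J4 replicate 2 or 3 alone raised it to 0.0285 or 0.0181, so the call was lost in each of these 5 fits. The log2 fold change in these fits was 0.55 to 0.80. Without replicate 3 of both groups the call at any fold change was kept (log2 fold change 0.62, adjusted p = 0.00517). It was also kept with the replicate block (0.71, adjusted p = 0.000129).

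Socs2 (ENSMUSG00000020027, chr10:95385362-95417180, minus strand), the brake on growth hormone signalling, was at 6.84, 6.06 and 5.87 CPM in GSK-J4 and at 6.24, 6.49 and 6.61 CPM in LPS + GSK-J4. The groups overlapped, and the log2 fold change was 0.04 (SE 0.28, adjusted p = 0.948) with a 95% interval of -0.57 to 0.64, which leaves room for a change of that size in either direction. Socs4 (ENSMUSG00000048379, chr14:47276931-47296102, plus strand), like Socs5 a regulator of the epidermal growth factor receptor, was at 19.3, 22.2 and 20.5 CPM in GSK-J4 and at 16.002, 23.3 and 11.98 CPM in LPS + GSK-J4. Its LPS + GSK-J4 libraries were scattered on both sides of the GSK-J4 libraries, with a log2 fold change of -0.27 (SE 0.23, 95% interval -0.75 to 0.21, adjusted p = 0.436). The value for Socs4 was -0.56 without LPS + GSK-J4 replicate 2 and -0.08 without LPS + GSK-J4 replicate 3, with adjusted p of 0.129 and 0.842. Socs5 (ENSMUSG00000037104, chr17:87107679-87137839, plus strand) was at 3.30, 2.69 and 5.50 CPM in GSK-J4 and at 6.24, 9.16 and 3.30 CPM in LPS + GSK-J4. Replicate 3 set this overlap, being the highest library of Socs5 in GSK-J4 and the lowest in LPS + GSK-J4. Its log2 fold change was 0.78 (SE 0.40, 95% interval -0.08 to 1.63, adjusted p = 0.189), and the value depended on single libraries. It was 1.36 (adjusted p = 0.0148) without replicate 3 of both groups and 0.39 (adjusted p = 0.632) without LPS + GSK-J4 replicate 2, outside the threshold in either case. On the scale before TMM, where the cutoff of the filter was set, 2 of 3 LPS + GSK-J4 libraries and 3 of 3 GSK-J4 libraries of Socs5 were over it.

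**Figure D2:**
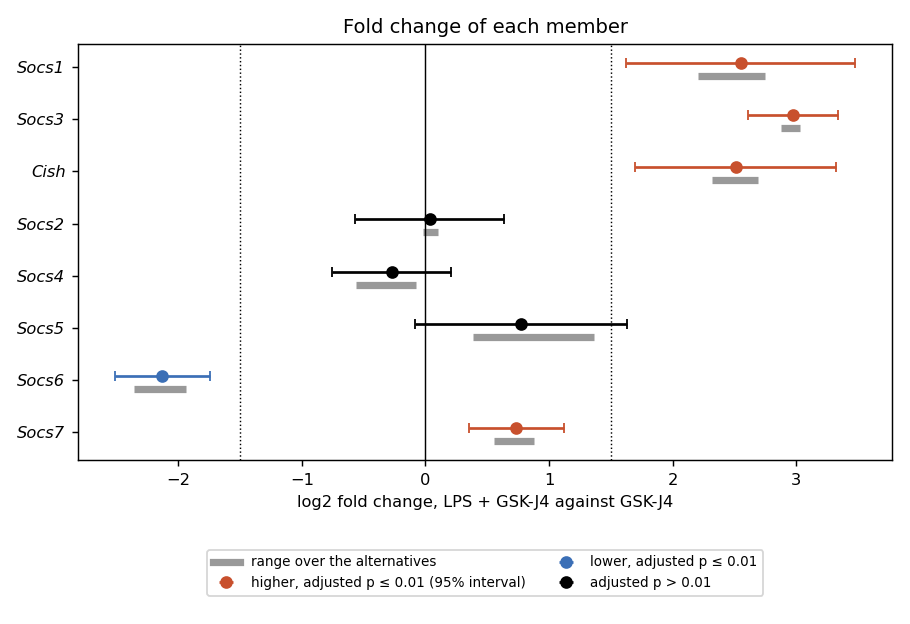
Log2 fold change of LPS + GSK-J4 against GSK-J4 for each member (points, with 95% intervals) and the range of the fitted value over the alternatives of processing (grey bars), with dotted lines at the threshold of 1.5 in each direction. The intervals of Socs1, Socs3 and Cish lie wholly above 1.62, that of Socs6 wholly below -1.74, and those of Socs2, Socs4 and Socs5 include 0.

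To compare members with each other, CPM were divided by the length of all annotated exons of each gene in kilobases. In GSK-J4, Socs6 had the highest level per kilobase at 13.3 ± 1.68 (SD, n = 3), followed by Socs7 at 3.90 ± 0.353, Socs3 at 3.47 ± 0.0748 and Socs4 at 3.01 ± 0.210, neighbours whose libraries did not overlap. Socs2 at 0.656 ± 0.0542 and Socs5 at 0.597 ± 0.230 per kilobase overlapped each other, and Socs1 at 0.348 ± 0.0835 and Cish at 0.220 ± 0.00937 closed the order. In LPS + GSK-J4 the order per kilobase was led by Socs3 at 27.3 ± 3.30, followed by Socs7 at 6.48 ± 1.497 and Socs6 at 3.02 ± 0.877. Below Socs7, each member overlapped the next in this order, from Socs6 through Socs4 at 2.48 ± 0.833, Socs1 at 2.19 ± 0.634, Cish at 1.28 ± 0.329 and Socs5 at 0.972 ± 0.456 to Socs2 at 0.676 ± 0.0194.

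The leading member thus changed from Socs6 to Socs3. Socs6 made up 52.0% ± 3.22 (SD, n = 3) of the summed level per kilobase of the family in GSK-J4, compared with 6.91% ± 2.30 when LPS was present. Socs3 made up 13.7% ± 1.00 and 61.4% ± 2.72. The share of Socs7 was 15.3% ± 1.501 and 14.5% ± 2.02. Summed over the 8 members, the level per kilobase was 25.5 ± 1.77 in the GSK-J4 libraries and 44.4 ± 4.04 in those with LPS, while the summed CPM, which is not divided by length, was 205 to 243 and 187 to 213 and overlapped between the groups. These lengths come from the GENCODE annotation of mm10, and the annotation used for counting is not given in the sources used here. With the length of the longest transcript instead, a choice made after the data were seen, the first 6 places of the order were kept in both groups, Socs6 made up 64.0% and 10.9%, Socs3 made up 10.1% and 58.7%, and the summed level per kilobase was 38.8 ± 3.12 and 52.6 ± 4.06, groups that did not overlap but lay closer together.

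**Figure D3:**
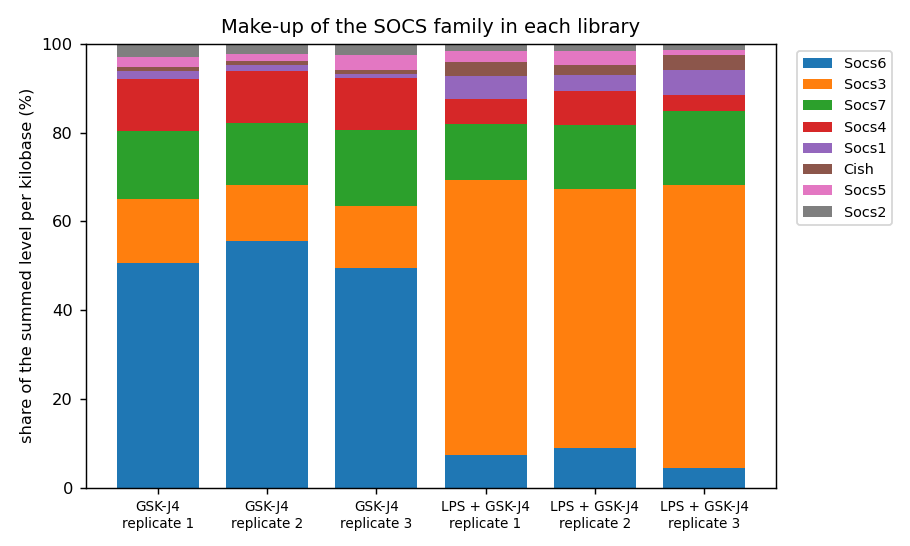
Share (%) of each member in the summed level per kilobase of exon of the 8 SOCS family genes, as 1 stacked bar for each library. Socs6 is the largest segment in the 3 GSK-J4 libraries and Socs3 in the 3 LPS + GSK-J4 libraries, while the segment of Socs7 stays of similar height.

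The log2 ratio of closely related members within a library needs no scaling between libraries. Socs6/Socs7 was 2.38, 2.64 and 2.19 in GSK-J4 and -0.11, -0.04 and -1.26 in LPS + GSK-J4, a difference of -2.87, so that the relatives turned from a clear excess of Socs6 counts to a slight excess of Socs7 counts. Socs2/Cish was 2.18, 2.08 and 1.87 in GSK-J4 and -0.38, 0.08 and -0.63 in LPS + GSK-J4, a difference of -2.35. Neither of these ratios overlapped between the groups, and nor did Socs4/Socs5, at 2.46 ± 0.57 and 1.48 ± 0.27 (SD, n = 3), a difference of -0.97. For Socs4/Socs5 the gap was narrow, with replicate 3 at 1.87 in GSK-J4 and at 1.80 in LPS + GSK-J4. Socs1/Socs3 was -3.16 ± 0.31 and -3.63 ± 0.29, overlapped, and differed by -0.47. The 2-sided exact permutation test gave p = 0.1 for the first 3 pairs, the smallest value 3 libraries against 3 can give, and p = 0.3 for Socs1/Socs3, or 0.133 and 0.3 after Benjamini-Hochberg adjustment over the 4 pairs. The Socs1/Socs3 difference depended on single libraries, being -0.30 without LPS + GSK-J4 replicate 2 (exact permutation p = 0.4) and -0.64 without GSK-J4 replicate 3, where the groups did not overlap and the exact permutation p was 0.1, the smallest possible. The Socs4/Socs5 difference also depended on single libraries, being -0.70 without GSK-J4 replicate 2 (exact permutation p = 0.2) and -1.27 without GSK-J4 replicate 3 (exact permutation p = 0.1). For Socs6/Socs7, whose LPS + GSK-J4 replicate 3 was the lowest, the difference was -2.47 without that library.

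**Figure D4:**
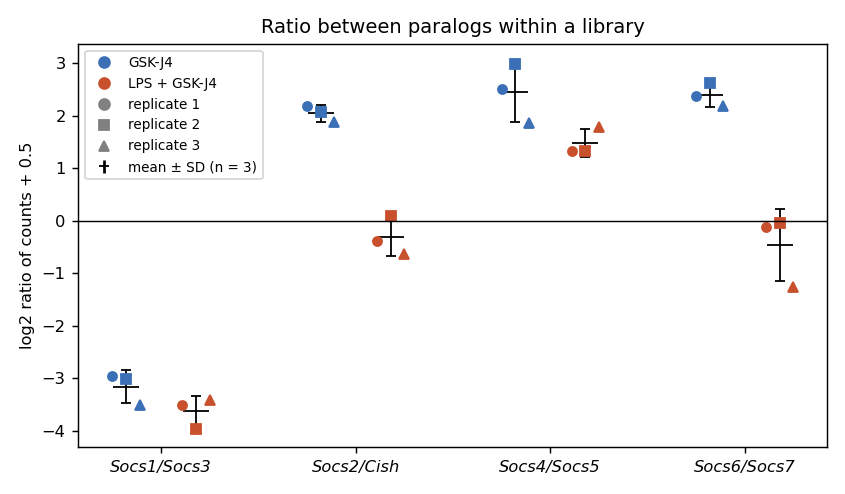
Log2 ratio of counts (each with 0.5 added) between 4 pairs of related SOCS family members in each library, with bars for the mean ± SD (n = 3). Socs2/Cish and Socs6/Socs7 lie above 1.8 in GSK-J4 and below 0.1 in LPS + GSK-J4, and Socs1/Socs3 overlaps between the groups.

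For each member that passed the test at any fold change, the genes with the most similar pattern were found as the smallest root mean square difference of centred log2 CPM over the 6 libraries. The nearest to Socs3 were Ier2 at 0.133, Trex1 at 0.145 and Ptx3 at 0.159. Socs1 and Cish were near each other, at 0.150, and Cish was nearest to Pim1, a kinase gene also known as a STAT target, at 0.148. The other neighbours were Irgm1 at 0.167 and Ttc39c at 0.173 for Socs1, and Tnfaip2 at 0.163 for Cish. The genes most like Socs6 were Aph1c at 0.166, the chemokine receptor gene Cxcr4 at 0.197 and Crebrf at 0.203. Cxcr4 fell from 667 ± 36.8 to 159 ± 15.8 CPM (SD, n = 3), a change of -2.07 on the log2 scale. A fold change near that of the member follows from how the neighbours were chosen. Socs7 had nearer neighbours, Fasn at 0.0548, Parp3 at 0.0574 and Wdr74 at 0.0586.

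Of the cytokines that signal through the JAK kinases, 34 were listed and 9 passed the filter. By the threshold of 1.5, 5 of these rose and 0 fell in edgeR and in DESeq2 (1 fell at an unadjusted p under 0.05), and the median log2 fold change of the 9 was 2.08, compared with -0.00 over all genes tested. Ifnb1, Il12b and Il6 passed the filter on low counts only through LPS + GSK-J4, and the median of the other 6 was 1.12. Il6, the textbook inducer of Socs3, rose from 1.86 ± 0.989 to 30.6 ± 4.90 CPM (SD, n = 3, log2 fold change 3.91), and its relatives of the gp130 group Lif and Clcf1 rose by 2.40 and 2.08 on the log2 scale. Ifnb1, which encodes interferon beta, had at most 1 count in any GSK-J4 library and stood at 88.3 ± 9.80 CPM in LPS + GSK-J4. Il12b likewise had at most 1 count in any GSK-J4 library and stood at 9.53 ± 2.54 CPM in LPS + GSK-J4. At any fold change 7 rose, Il11 (1.12) and Il15 (1.11) with the 5 above, and 1 fell, Osm (-1.45), which like Il11 is a gp130 cytokine. These 3 were named after their values were seen.

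Of 41 receptor chains 23 passed the filter, with 1 up, Il15ra (log2 fold change 2.05), 1 down, Il21r (-1.83), and a median of -0.04. Il15ra was over the cutoff of the filter in 2 of 3 GSK-J4 libraries and in 3 of 3 with LPS. The filter itself counts libraries of both groups together. As with 1 further receptor gene, only the group with LPS was over the cutoff in full, and the median of the other 21 was -0.06. At any fold change 1 receptor gene rose and 4 fell, Il21r and, named after their values were seen, Il4ra (-0.78), Csf3r (-0.69) and Csf2rb (-0.52). Among 10 tested genes of the JAKs, STATs and Irf9, none passed the threshold of 1.5 in edgeR or DESeq2 (5 had an unadjusted p under 0.05), and the median log2 fold change was -0.01. With any fold change 2 of the 10 passed. Jak2 rose from 51.1 ± 7.56 to 89.7 ± 5.00 CPM (SD, n = 3, log2 fold change 0.80, adjusted p = 0.000605), and Stat5b fell from 34.5 ± 5.24 to 20.1 ± 2.48 CPM (log2 fold change -0.78, adjusted p = 0.00676).

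Other brakes on the same pathway, the PIAS proteins, phosphatases and related adaptors, gave 14 tested genes of 15. Usp18, which shuts off the interferon receptor, rose from 7.32 ± 1.28 to 21.8 ± 7.66 CPM (SD, n = 3, log2 fold change 1.54, adjusted p = 0.000585). The phosphatase gene Ptpn1 fell by 0.87 on the log2 scale (adjusted p = 0.00124), the other 12 passed neither rule, and the median was -0.09. The partners with which the SOCS box forms its ubiquitin ligase, listed as 8 symbols of which 6 were in the tables (elongins C and B under the older symbols Tceb1 and Tceb2, Cul5, Cul2, Rnf7 and Rbx1), gave 0 calls in 6 tested genes at any fold change in edgeR and in DESeq2, 1 gene at an unadjusted p under 0.05, and a median of -0.10.

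Of 26 other genes with a SOCS box 12 were tested, with a median of -0.28, or -0.19 without the 2 that passed the filter only through GSK-J4. None passed the threshold of 1.5 in edgeR or DESeq2 (4 had an unadjusted p under 0.05), and 2 fell at any fold change, Spsb1 (-1.33) and Rab40c (-1.11), named after their values were seen. Of 19 proteins that SOCS members are known to bind, 15 were tested, with a median of 0.05, or -0.08 without the 1 that passed the filter only through LPS + GSK-J4. Egfr, which SOCS4 and SOCS5 regulate, rose from 18.7 ± 2.43 to 59.4 ± 15.98 CPM (SD, n = 3, log2 fold change 1.66), and at any fold change 3 of the 15 rose and 3 fell. The others, apart from Jak2, Il4ra and Csf3r given above, were Irs1 (1.07) and Irs2 (-0.99), the insulin receptor substrates, which moved in opposite directions and were named after their values were seen. The higher astrocyte markers given above moved in the same direction as Egfr, and their part in it was not tested.

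**Figure D5:**
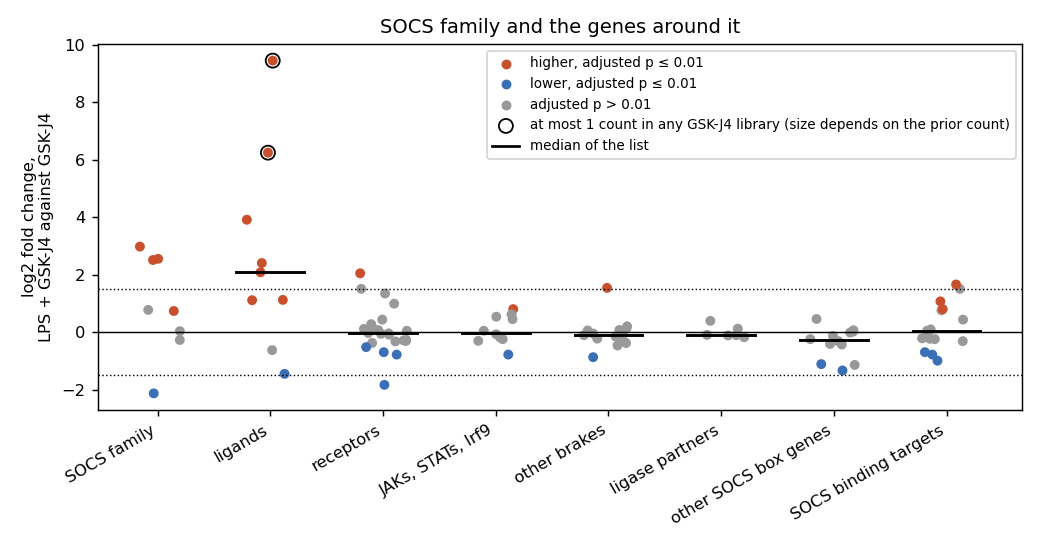
Log2 fold change of LPS + GSK-J4 against GSK-J4 for each tested gene of the SOCS family and of 7 lists of genes around it (points, coloured by the test at any fold change), with the median of each list as a black line, dotted lines at 1.5 in each direction, and open rings for Ifnb1 and Il12b, whose fitted size depends on the prior count. The line of the ligands, at 2.08, includes Ifnb1, Il12b and Il6, which passed the filter on low counts only through LPS + GSK-J4, and lies at 1.12 without them, while the lines of the other lists lie between -0.28 and 0.05. Some genes, such as Jak2, are in more than 1 list.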

How the data were processed

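The authors trimmed paired-end reads of rRNA-depleted, strand-specific libraries with Trimmomatic 0.33, aligned them to mm10 with STAR 2.5.1 and deposited raw counts of fragments per gene, without normalization. Fragments that STAR mapped to several places, or that overlapped several genes, were left out of these counts by the aligner's own rule, so near-identical genes are undercounted. The reverse-strand column, which held over 98.6% of the counts on either strand, was used. Groups and replicate numbers came from the titles.

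Counts were tested with edgeR 4.0.16 in R 4.3.3 (TMM, filterByExpr at its minima of 10 counts and a total of 15, robust quasi-likelihood test without covariates), with Benjamini-Hochberg adjustment over 10133 genes. The test was checked on simulated data in which only genes with more counts than Socs1, Socs2, Socs5 and Cish were changed. That check does not cover genes with so few counts. SE is the absolute log2 fold change divided by the square root of F. The alternatives were unstranded counts, other scalings and filters, removal of the features Rn45s, Mir6236 and Lars2 (named ribosomal features here), DESeq2 1.42.0, a looser threshold, a replicate block and leaving out libraries. Figures used matplotlib 3.10.9.

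The genes named are the 8 members, genes of the lists past the threshold of 1.5, every gene of the JAK-STAT, brake and ligase lists with an adjusted p of at most 0.01, and the 3 nearest neighbours of each changed member. Members and lists were chosen with earlier results of these data known.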

Additional observations from a re-analysis of the deposited data

Results flagged for a closer look

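Counts on the strand opposite to Socs6 entered no comparison other than the alternative with unstranded counts. These opposite-strand counts were above the lower limit of 3 in the 3 GSK-J4 libraries, with 6, 9 and 4 in replicates 1, 2 and 3. In LPS + GSK-J4 they were lower, with 2, 0 and 1. They made up 1.08% of the Socs6 counts on both strands in the GSK-J4 group, where the share over all genes was 1.01 to 1.38% per library, and 1.13% in the group with LPS, where it was 0.966 to 1.08%.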

How the results depend on the processing

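The calls of Socs1, Socs3, Cish and Socs6 kept their direction and their side of the threshold in every alternative that tested them. Requiring at least 10 counts in every library removed Socs1, Cish and Socs5 from the fit, which left 1 member called up, and 176 genes in all. At the looser threshold, an adjusted p no higher than 0.05 together with a log2 fold change of 1 or more, 844 genes rose and 285 fell, with 3 members up and 1 down as before. Socs2, which passed no test, changed sign to -0.0185 with no filter on low counts, to -0.00948 without replicate 3 of both groups and to -0.00113 without GSK-J4 replicate 3, the lowest value when libraries were left out in turn, of which the highest was 0.103. Leaving out each library in turn gave 271 to 374 genes up and 79 to 100 down. Without a filter the median log2 fold change of all genes was 0.12. To see whether replicate numbers pair the samples, the group mean of each gene was subtracted from its log2 CPM. Correlations of these deviations, which are not correlations of expression levels, were taken between libraries of the 2 groups. They were -0.0102 to 0.295 between same-numbered libraries and -0.290 to 0.243 between differently numbered ones, ranges that overlapped. Of the 6 libraries 3 were closest to their own number, and replicate 3 of both groups lay apart from the others, as given above. These values do not settle whether replicate numbers pair the samples. With the replicate block 306 genes rose and 90 fell, and 3 members rose and 1 fell. At any fold change the counts over all genes were 1259 up and 1016 down with the block, compared with 853 and 553 without it. Members with under 10 counts in a library, Socs1, Cish and Socs5, are limited by depth, and intervals do not cover PCR duplicates.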
